A study of Mus musculus with 6 samples.

Results

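The genes described here encode the proteins of the cytosolic ribosome. They were taken from the gene tables by symbol: Rpl, Rps or Rplp followed by a number, with an optional short suffix, together with Rpsa, and without genes named as pseudogenes and without the S6 kinases. This gave 87 of the 25939 listed genes. Of these, 43 encode large subunit proteins, 31 small subunit proteins and 3 the stalk proteins, and these 77 are called canonical below. A further 5 are paralogs (Rpl3l, Rpl7l1, Rpl22l1, Rpl39l and Rps27l), and 5 are annotated as pseudogene copies although their symbols do not say so (Rps3a2, Rps3a3, Rpl6l, Rpl32l and Rps4l). The ribosomal protein genes Fau and Rack1 have other names and lie outside the rule.

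The RNA came from vascular smooth muscle cells grown from mouse aorta and kept for 48 h with trimethylamine N-oxide (TMAO, 3 libraries) or without it (Control, 3 libraries). TMAO is made in the liver from trimethylamine that gut bacteria release from dietary choline and carnitine. Its dose and the strain, sex and age of the mice are unstated in the labels. Nothing says that the 3 samples of a group came from separate animals or cultures, so every p-value reflects only how far these samples differ, and that spread may be technical.

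Each ribosome holds a single copy of nearly every ribosomal protein, and the stalk, which recruits the translation factors that hydrolyse GTP, holds several copies of P1 and P2. The genes are scattered over the genome, are transcribed in almost all cells, and have mRNAs that begin with a C and a run of pyrimidines, the 5′ terminal oligopyrimidine (TOP) tract. Through this tract the mTORC1 kinase and the RNA-binding protein LARP1 set how strongly the mRNAs are translated and how stable they are. Reverse transcription of these abundant mRNAs has also left many processed copies of them in mammalian genomes.

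The transcription start windows below were searched for a C followed by a run of pyrimidines. They are the 30 bases centred on the annotated start in RefSeq (build GRCm38.p6), 5′ to 3′ on the gene's strand, with the longest run of a C followed by at least 4 pyrimidines in capitals. The first 8 are the genes with a start in the RefSeq table among the 10 ribosomal protein genes with the smallest p between TMAO and Control cells, and Rps6 and Rps4x, which lay on the other side of 0, are set beside them.
Rpl7a (chr2:26910792-26910821, + strand): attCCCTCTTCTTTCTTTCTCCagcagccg
Rps2 (chr17:24720048-24720077, + strand): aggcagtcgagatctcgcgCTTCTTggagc
Rplp0 (chr5:115559452-115559481, + strand): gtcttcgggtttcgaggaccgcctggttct
Rplp2 (chr7:141447636-141447665, + strand): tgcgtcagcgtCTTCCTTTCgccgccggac
Rpl4 (chr9:64173372-64173401, + strand): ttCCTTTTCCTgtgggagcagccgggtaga
Rpl22l1 (chr3:28805493-28805522, + strand): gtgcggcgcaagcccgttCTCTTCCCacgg
Rps10 (chr17:27635230-27635259, - strand): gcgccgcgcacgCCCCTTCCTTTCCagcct
Rps18 (chr17:33955651-33955680, - strand): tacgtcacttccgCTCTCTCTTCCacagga
Rps6 (chr4:86857353-86857382, - strand): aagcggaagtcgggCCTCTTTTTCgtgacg
Rps4x (chrX:102189377-102189406, - strand): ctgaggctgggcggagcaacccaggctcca

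Of the 87 genes, 63 had a start in the table and 42 of those (66.7%) held such a tract on the gene's strand, against 10885 of 27025 genes in the whole table (40.3%). The longest of the printed runs was that of Rpl7a, with 19 bases, and those of Rps10 and Rps18 had 13 and 11 bases. The windows of Rplp0 and Rps4x held none, which says only that these letters do not occur within 15 bases of the annotated start.

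Ribosomal protein mRNAs were among the most abundant in these cells, and 36 of the 100 genes with the highest mean FPKM (read fragments per kilobase of exon relative to the whole library) were ribosomal protein genes. In sum they took 13.6%, 14.4% and 14.0% of all FPKM in TMAO libraries 1 to 3, against 13.7%, 13.1% and 13.5% in Control libraries 1 to 3. The mean share was 14.0% ± 0.421 in TMAO cells and 13.4% ± 0.326 in Control cells (SD, n = 3 each), a difference of 0.583 percentage points. TMAO library 1 lay among the Control libraries and TMAO libraries 2 and 3 lay above them. Counted as recovered reads the shares were 9.27%, 10.3% and 9.89% in TMAO libraries, against 9.73%, 9.29% and 9.86% in Control libraries, which overlap, and the difference in means was 0.189 percentage points. The genes of the mitochondrial genome, which are part of the same totals, took 12.4%, 12.4% and 12.7% of FPKM in TMAO libraries and 14.8%, 13.7% and 13.2% in Control libraries, and their part in the shares was not tested. In bulk RNA, a change in how many cells of a type are present and a change in RNA per cell cannot be told apart.

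Rplp1, which encodes the acidic stalk protein P1, had 5511, 6169.9 and 5659.8 FPKM in TMAO libraries 1 to 3, against 5499, 5485 and 5711 FPKM in Control libraries 1 to 3, and had the highest mean FPKM of all 87 genes. The groups overlapped, with TMAO library 2 highest and the other TMAO libraries inside the Control range. Rplp0, the stalk base that binds ribosomal RNA and anchors P1 and P2, had 2412, 2568 and 2569 FPKM in TMAO libraries and 2339, 2249 and 2312 FPKM in Control libraries. Every TMAO library was above every Control library for Rplp0. Its log2 fold change was 0.13 ± 0.04 (SE), with an adjusted p of 0.242 in limma, which did not pass 0.05. Rplp2, the partner of P1, had 372, 421 and 389 FPKM in TMAO libraries and 358, 353 and 376 FPKM in Control libraries. TMAO library 1 lay just below Control library 3, and the log2 fold change of Rplp2 was 0.12 ± 0.05, with an adjusted p of 0.364 in limma. Together the 3 stalk genes took 2.02%, 2.14% and 2.05% of FPKM in TMAO libraries, against 1.93%, 1.89% and 1.91% in Control libraries.

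**Figure D1:**
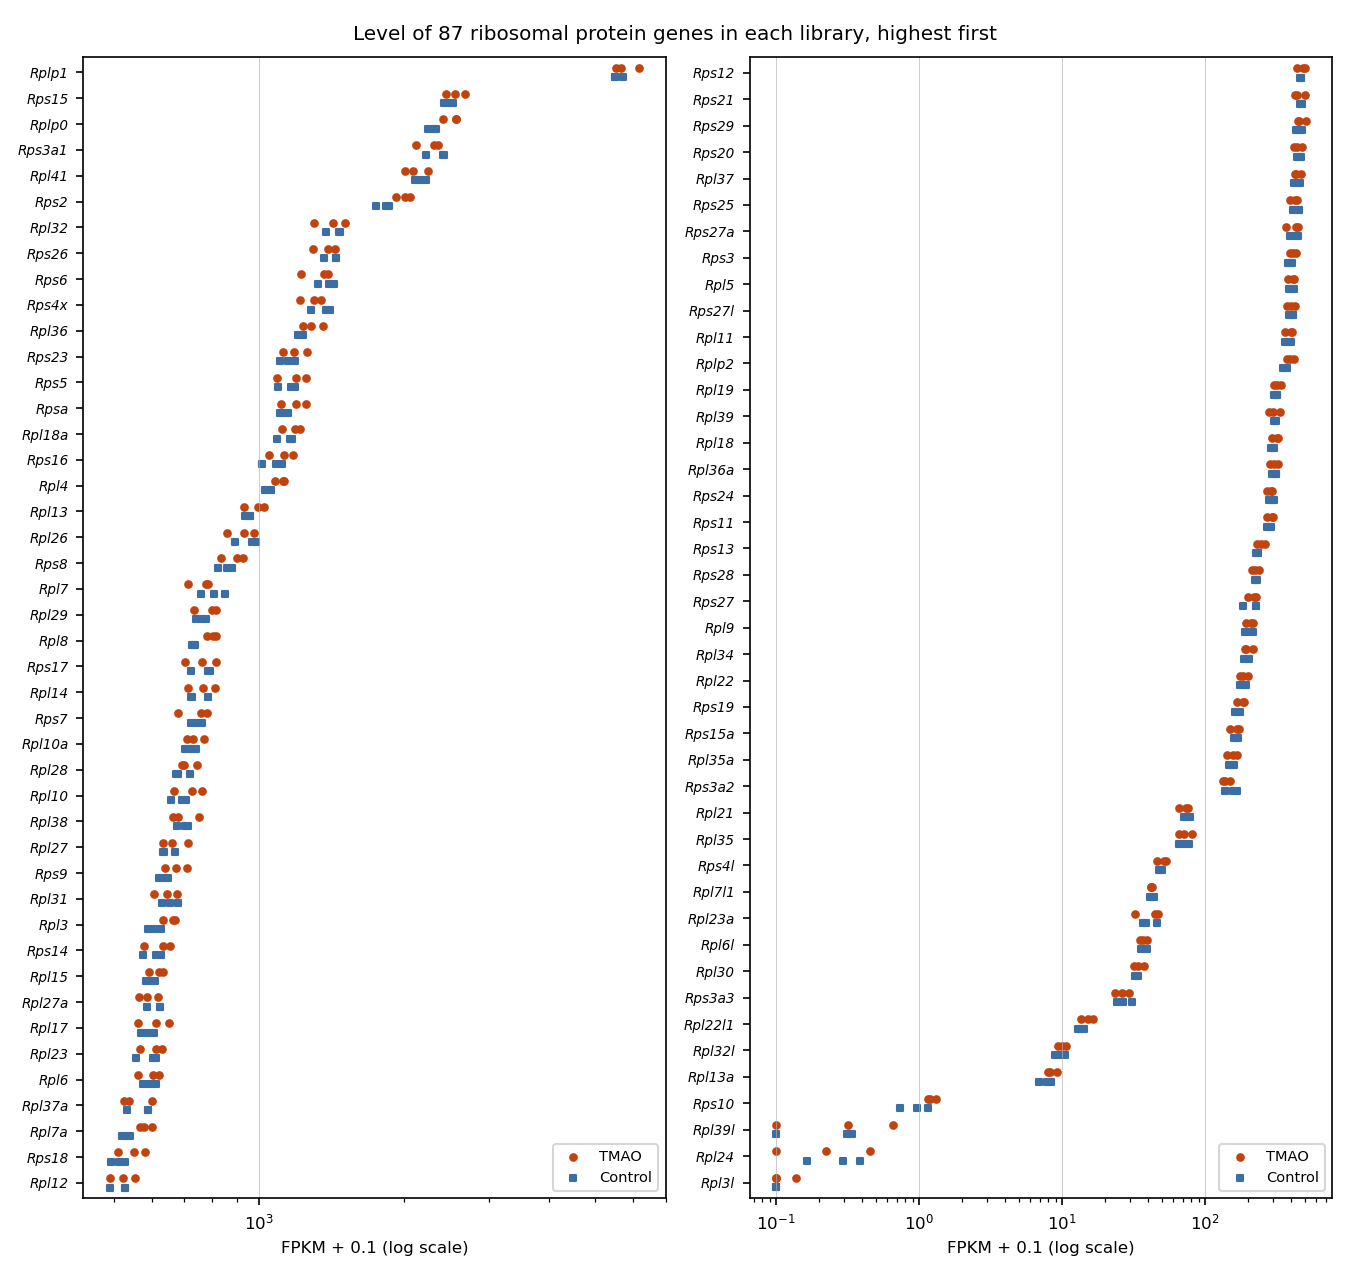
Level of each of the 87 ribosomal protein genes in the 3 TMAO libraries (red circles) and the 3 Control libraries (blue squares), as FPKM + 0.1 on a log axis, from the highest mean (top left) to the lowest (bottom right). The left and right panels have different ranges; the levels run from Rplp1 at a mean of 5673 FPKM to Rpl24, Rpl39l and Rpl3l near 0, and within a gene the groups lie close together or overlap.

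After Rplp1, the highest deposited FPKM values were those of the small subunit genes Rps15, Rps3a1, Rps2 and Rps26, of Rplp0, and of the large subunit genes Rpl41 and Rpl32. Rps15, whose protein sits in the head of the small subunit, averaged 2564 ± 115 FPKM in TMAO cells and 2486 ± 59.6 FPKM in Control cells (SD, n = 3 each). Rps3a1 averaged 2264 ± 127 FPKM in TMAO cells and 2354 ± 108 FPKM in Control cells. Rpl41, which encodes the smallest ribosomal protein, averaged 2113 ± 120.3 FPKM in TMAO cells and 2163 ± 57.4 FPKM in Control cells. The ranges of the groups overlapped for these 3 genes. The order rests on the length by which reads are divided: per principal transcript length Rpl41 had a mean of 5715, above Rplp1 at 5673, and Rpl13 one of 3215, above Rps15 at 3182. Rpl32 averaged 1412 ± 105 and Rps26 1376 ± 71.1 FPKM in TMAO cells, against 1437 ± 53.5 and 1417 ± 46.9 FPKM in Control cells.

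A gene was tested where 3 or more libraries reached 1 FPKM, which left 84 of the ribosomal protein genes. None of them passed an adjusted p of 0.05 in limma, and none did in voom on the recovered reads, where 8 had an unadjusted p under 0.05 (9.52%, against 14.1% of all genes in that fit). In the limma fit of FPKM, 20 of all 11062 tested genes did, or 0.181%, of which 8 were higher in TMAO cells (0.0723%) and 12 lower (0.108%). The smallest adjusted p of a ribosomal protein gene was 0.214, that of Rpl7a. At an unadjusted p under 0.05 there were 6 ribosomal protein genes, or 7.14%, against 13.1% of all tested genes, and all 6 were higher in TMAO cells (Rpl7a, Rpl8, Rps2, Rplp0, Rpl3 and Rplp2). Of all tested genes, 8.61% were higher and 4.48% lower at that level. In 7 ribosomal protein genes every TMAO library lay above every Control library, a separation that 12.4% of all tested genes showed, and in 0 every TMAO library lay below, against 6.23%. Among the 1724 tested genes with a mean of at least 30 FPKM, which are nearer in level, 19.6% had an unadjusted p under 0.05.

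The fold changes were small. They ran from -0.13 for Rps3a2 to 0.20 for Rps10 on the log2 scale, and 53 were above 0 and 31 below, where 60.0% of all tested genes were above 0. Rps10 passed the filter only through the TMAO group, which favours a value above 0, and the next highest was Rpl22l1 at 0.14. The median was 0.029, against 0.025 for all tested genes. Other scalings between libraries mostly moved both medians alike. Under median-ratio size factors 42 were above 0, with medians of 0.001 for the ribosomal protein genes and 0.001 for all genes. With each library rescaled to a common sum 68 were above 0, with medians of 0.063 and 0.059. Without the mitochondrial genome 57 were above 0, with medians of 0.039 and 0.034. Quantile normalization left the medians further apart, at 0.017 and -0.002, with 52 above 0. In linear terms the mean of TMAO cells was within 10% of the mean of Control cells for 81 of the 84, the exceptions being Rps2, Rpl22l1 and Rps10. By subunit, 29 of 42 tested large subunit genes were above 0, with a median of 0.026, and 18 of 31 small subunit genes, with a median of 0.032. Both subunits' medians went below 0 with GC and length trends removed, and that of the large subunit also under median-ratio size factors. All 3 stalk genes were above 0, with a median of 0.12, although Rplp1 was below 0 under quantile normalization and with those trends removed, and 1 of 3 tested paralogs and 2 of 5 annotated pseudogene copies were. Of those copies, Rps3a2 averaged 140.3 ± 8.09 FPKM in TMAO cells and 153 ± 14.7 FPKM in Control cells (SD, n = 3 each). Rpl6l, Rps3a3 and Rpl32l averaged 37 ± 2.21, 26.4 ± 3.08 and 9.89 ± 0.632 FPKM in TMAO cells, against 37.4 ± 1.75, 27 ± 3.27 and 9.54 ± 0.777 FPKM in Control cells.

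**Figure D2:**
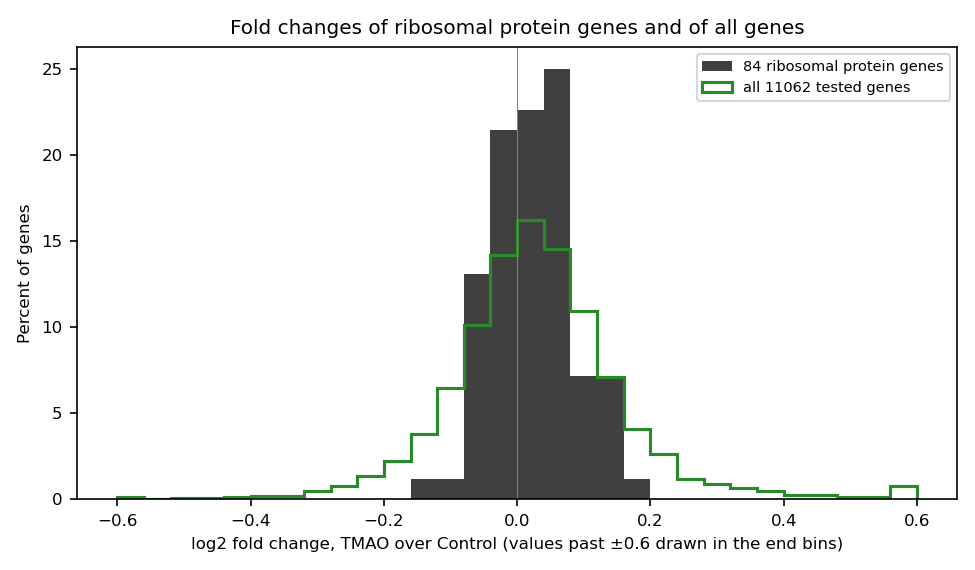
Distribution of log2 fold changes, TMAO over Control, for the 84 tested ribosomal protein genes (filled bars) and all 11062 tested genes (outline), as the percent of each set in bins of 0.04. The ribosomal protein genes span -0.13 to 0.20 with a median of 0.029, and the median of all genes is 0.025. The highest value is that of Rps10, which passed the filter only through the TMAO group.

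The genes with the smallest p encode proteins of both subunits and of the stalk. Rpl7a, a large subunit protein, had 564, 600.4 and 577 FPKM in TMAO libraries and 527, 519 and 539 FPKM in Control libraries. All 3 TMAO libraries were above all 3 Control libraries, and the log2 fold change was 0.14 ± 0.04, with an adjusted p of 0.214 in limma. Rpl8, which lies near the peptidyl transferase centre, had 780.2, 812 and 801 FPKM in TMAO libraries and 732, 725 and 738 FPKM in Control libraries. Its libraries were separated too, and the values within each group were close together, with a log2 fold change of 0.12 ± 0.04 and an adjusted p of 0.221 in limma. Rps2, a small subunit protein beside the path by which mRNA enters, had 1926, 2064 and 2014 FPKM in TMAO libraries and 1837, 1755 and 1865 FPKM in Control libraries. Its log2 fold change was 0.14 ± 0.04, with an adjusted p of 0.23 in limma, and the groups did not overlap. Rpl3, which also reaches the peptidyl transferase centre, had 631, 669 and 663 FPKM in TMAO libraries and 606, 588 and 625 FPKM in Control libraries. The lowest TMAO value was only just above the highest Control value, and the log2 fold change of 0.11 ± 0.04 had an adjusted p of 0.318 in limma.

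Rpl4, whose protein lines the exit tunnel, had 1078, 1119 and 1127 FPKM in TMAO libraries and 1041, 1027 and 1061 FPKM in Control libraries. The groups were separated, and the log2 fold change was 0.09 ± 0.04, with an adjusted p of 0.387 in limma. Rps18, in the head of the small subunit, had 509.6, 581 and 551 FPKM in TMAO libraries and 511, 493 and 525 FPKM in Control libraries. TMAO library 1 lay inside the Control range, and the adjusted p was 0.46 in limma. Rpl36, named after its values were seen, was the other separated gene, at 1235, 1359 and 1281 FPKM in TMAO libraries and 1205, 1227 and 1234 FPKM in Control libraries, where TMAO library 1 was just above Control library 3.

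At the other end of the range, and also named after their values were seen, Rpl7 averaged 757 ± 38.1 FPKM in TMAO cells and 806 ± 46.5 FPKM in Control cells, with a log2 fold change of -0.09 ± 0.05. Rps4x, on the X chromosome, averaged 1289 ± 65 FPKM in TMAO cells and 1357 ± 64.5 FPKM in Control cells, with a log2 fold change of -0.07 ± 0.05. Rps25 averaged 419.6 ± 26.2 FPKM in TMAO cells and 440.2 ± 24.6 FPKM in Control cells, with a log2 fold change of -0.07 ± 0.06. In all 3 the groups overlapped, and the adjusted p-values in limma were 0.535, 0.59 and 0.665.

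Several ribosomal proteins have known roles beside translation or in disease, and their genes are given here for reference. Rps6, the small subunit protein that S6 kinases phosphorylate, had 1219.8, 1391 and 1362 FPKM in TMAO libraries and 1395, 1328 and 1429 FPKM in Control libraries. Rps19, the gene most often mutated in human Diamond-Blackfan anaemia, had 167, 186 and 184 FPKM in TMAO libraries and 168, 161 and 176 FPKM in Control libraries. Rps3, which lines the mRNA entry channel, had 396, 434 and 413 FPKM in TMAO libraries and 395, 379 and 406 FPKM in Control libraries. All 3 overlapped between groups, with log2 fold changes of -0.07 ± 0.06, 0.09 ± 0.05 and 0.07 ± 0.05. Rpl5 and Rpl11, which bind 5S ribosomal RNA and, when free, the p53 ligase Mdm2, averaged 403 ± 21.5 and 388 ± 23.6 FPKM in TMAO cells, against 404 ± 15.2 and 382 ± 17.7 FPKM in Control cells. Rpsa, also known as a laminin-binding protein, averaged 1185 ± 73.2 FPKM in TMAO cells and 1128 ± 22 FPKM in Control cells. Rps27a, which is made as a fusion to ubiquitin, averaged 415 ± 43 FPKM in TMAO cells and 425 ± 30.1 FPKM in Control cells. Rpl38, which in mouse embryos is needed for the translation of some Hox mRNAs, averaged 696 ± 47 FPKM in TMAO cells and 695 ± 19.1 FPKM in Control cells. None of these genes had an unadjusted p under 0.05.

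A pattern across libraries ran through nearly the whole set. Within the TMAO group, library 1 held the lowest value in 76 of the 84 tested genes (90.5%) and library 2 the highest in 71 (84.5%). For all tested genes library 1 was the lowest of the TMAO libraries in 24.6% and library 2 the highest in 24.8%. Within the Control group, library 2 was lowest in 69 ribosomal protein genes (82.1%) and library 3 highest in 60 (71.4%), against 27.9% and 30.3% of all tested genes. As deviations from each gene's mean over the 6 libraries on the log2 scale, the medians of the ribosomal protein genes were -0.074, 0.088 and 0.023 in TMAO libraries 1 to 3 and -0.003, -0.060 and 0.025 in Control libraries 1 to 3. The medians over all tested genes were 0.042, -0.012 and 0.008 in TMAO libraries and -0.021, 0.002 and -0.016 in Control libraries. The libraries within a group differed among themselves by more than the median difference of 0.029 between the groups. The median coefficient of variation of a tested ribosomal protein gene was 6.03% over TMAO libraries and 3.66% over Control libraries. The low place of 2 libraries was seen under other scalings too: TMAO library 1 was lowest of its group in 65 genes with each library rescaled to a common sum and in 78 with median-ratio size factors, and Control library 2 in 64 and 72. Control library 3 was highest in 16 and 58, so its place did not hold under the common sum, where Control library 1 was highest in 63. Ribosomal protein genes share the library, its total and its handling, so they are not separate observations of the treatment, and the labels name no batch.

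**Figure D3:**
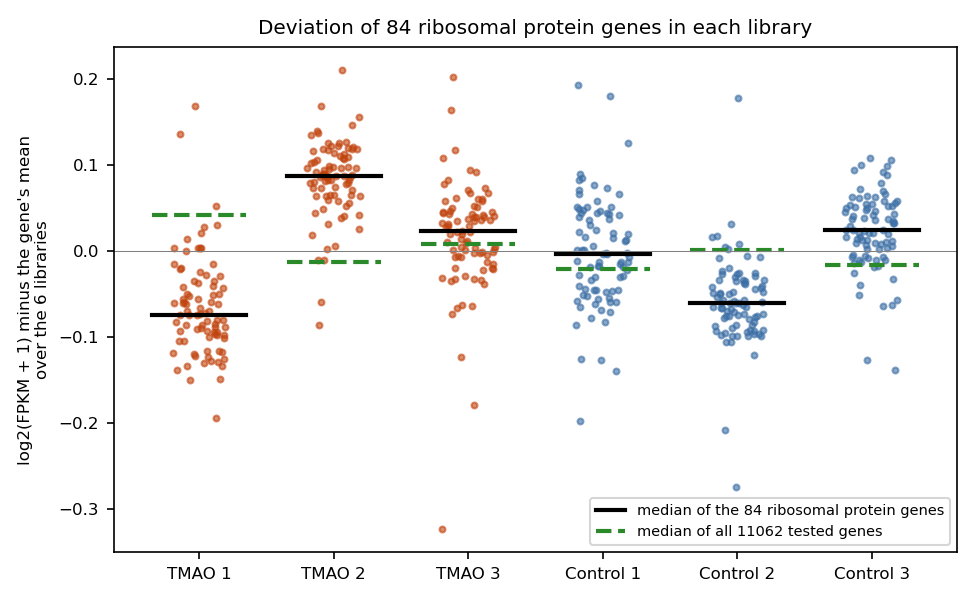
Deviation of each of the 84 tested ribosomal protein genes (points) from its mean over the 6 libraries, in log2(FPKM + 1), for TMAO libraries (red) and Control libraries (blue). Solid bars are medians of the ribosomal protein genes and dashed bars medians of all 11062 tested genes; TMAO library 1 has a median of -0.074 and TMAO library 2 one of 0.088.

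The count of small p-values changed most with TMAO library 1 and with the scaling. Without TMAO library 1, 21 of the 84 genes had an unadjusted p under 0.05 in limma, or 25.0%, against 11.5% of all tested genes, the median log2 fold change was 0.068, and 70 genes were above 0. Without TMAO library 2 the median was -0.014 and 33 genes were above 0, with 5 under that p (5.95%, against 13.7% of all). With TMAO library 3 or 1 of the Control libraries left out, 4 to 7 genes were under it, or 4.76% to 8.33%, against 9.55% to 11.4% of all. With the FPKM of each library rescaled to a common sum, 25 genes were under it (29.8%, against 14.5% of all), and with median-ratio size factors 0 were, against 12.7% of all. In none of these did any ribosomal protein gene pass the adjusted threshold, and the smallest adjusted p was 0.0516, after rescaling to a common sum.

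The deposited levels of the canonical genes spanned a wide range, although ribosomes hold nearly all of their proteins in equal number. Mean FPKM over the 6 libraries ran from 0.17 (Rpl24) to 5673 (Rplp1) with a median of 595, and the 90th percentile was 8.53 times the 10th. A mean under 100 FPKM was found for 7 of the 77: Rpl13a, Rpl21, Rpl23a, Rpl24, Rpl30, Rpl35 and Rps10. FPKM divides by the length of all annotated exons of a gene, and in the GENCODE M21 annotation that length was 2.35 times the length of the principal transcript at the median and up to 9.80 times, for Rps15a. Across the canonical genes this length ratio and log2 FPKM had a Spearman rho of -0.51 (77 genes, which share the libraries). With the same reads divided by the principal transcript length, the 90th percentile was 6.51 times the 10th and 5 genes stayed under 100.

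Sequence shared with other annotated genes was common. The median gene had 40.0% of its 50-base words found in no other annotated gene, and 20 genes had under 20%. Words were matched on both strands and also against gene models that overlap the gene, so part of this sharing can lie at the same locus. Outside the set, 410 listed genes shared at least 10% of the words of a ribosomal protein gene without overlapping it. They are called copies here, but some carry the names of other genes, such as Uimc1 (with Rpl29), Med21 (with Rps26) and Wdr89 (with Rplp2). All reads of a copy were added, whether or not they came from the shared sequence. Each of the 410 was counted only with the gene of whose words it held the largest share. Counted in this way, 75 of the 87 genes had at least 1 copy, Rps2 the most with 34 and Rpl21 31. Rpl6 had 0, although Gm6136 shared 52.6% of its words, since Gm6136 was counted with Rpl6l, at 55.7%. The ribosomal protein genes held 88.8% of the reads of genes and copies together, and 6 genes held less than their copies did (Rpl21, Rpl23a, Rpl24, Rpl35, Rpl6l and Rps10). How the authors' counting treated reads that match several places is not given in the sources used here, so the split between a gene and its copies is uncertain. With the copies' reads added and divided by principal transcript length, the 90th percentile of the canonical genes was 3.55 times the 10th, and 2 genes stayed under 100, Rpl13a and Rpl24.

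**Figure D4:**
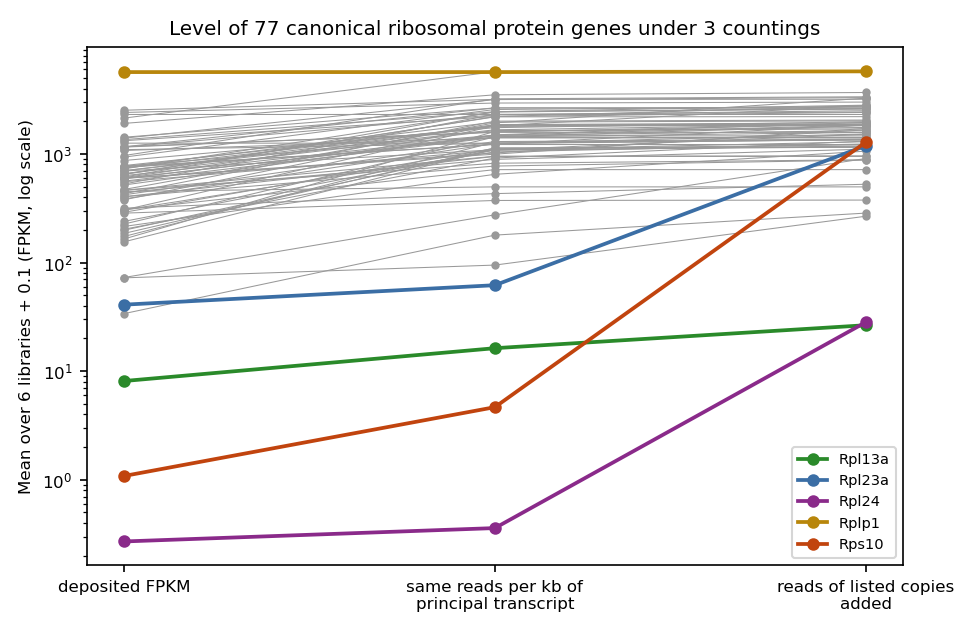
Mean level of each of the 77 canonical ribosomal protein genes over the 6 libraries, plus 0.1, on a log axis: as deposited in FPKM (left), with the same reads divided by the length of the principal transcript (middle), and with the reads of listed copies added (right). The 90th percentile over the 10th is 8.53, 6.51 and 3.55 in turn; coloured lines mark Rps10, Rpl23a, Rpl24, Rpl13a and Rplp1.

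Rps10 showed the widest gap. The gene, whose protein in the head of the small subunit is a target of the quality control of stalled ribosomes, had 1.05, 1.09 and 1.21 FPKM in TMAO libraries and 0.865, 0.632 and 1.06 FPKM in Control libraries, from 40, 40 and 42 reads in TMAO libraries and 30, 22 and 41 in Control libraries. All 3 TMAO libraries reached 1 FPKM and only Control library 3 did, so Rps10 entered the test through the TMAO group, and its log2 fold change of 0.20 ± 0.10, the highest of the set, had an adjusted p of 0.457 in limma. The processed pseudogene Rps10-ps2 had 1192, 1299 and 1287 FPKM in TMAO libraries and 1242, 1172 and 1226 FPKM in Control libraries, and the groups overlapped. The 2 sequences differ at 5 of 496 aligned coding bases, an identity of 99.0%, and their first 60 bases, shown here from GENCODE M21 (mm10), are the same.
Rps10 (gene at chr17:27630418-27636669, - strand): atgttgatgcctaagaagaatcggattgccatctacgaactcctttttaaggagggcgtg
Rps10-ps2 (gene at chr16:20822145-20822640, - strand): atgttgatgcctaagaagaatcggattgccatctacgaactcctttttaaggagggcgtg
Rps10 held 0.357% of the reads of Rps10 and its 2 copies. With the copies added its level per principal transcript length was 1284, beside the median of 1667 for the canonical genes, and the log2 fold change was 0.06 with an adjusted p of 0.637. M21 also places other gene models on the same strand over 20.6% of the exon bases of Rps10. Rps10 shares 90.6% of its words with the readthrough gene model RPS10-NUDT3.

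Rpl23a, which forms part of the exit site for the signal recognition particle, had 44.6, 47 and 32.1 FPKM in TMAO libraries and 36.6, 45.9 and 38.7 FPKM in Control libraries. It held 5.20% of the reads with its 6 copies, of which Gm3362, Gm10335 and Gm10132 had means of 671, 328 and 232 FPKM. With copies its level per principal transcript length was 1191. Rpl24, which makes a bridge between the subunits, was listed with 6, 2 and 0 reads in TMAO libraries and 1, 3 and 5 reads in Control libraries and was not tested. Other gene models on the same strand covered 47.0% of the exon bases of Rpl24. It shared 69.4% of its words with the model Gm28037, and it reached 28.2 with copies. Rpl13a, in humans a silencer of inflammatory transcripts once released from the ribosome, had 9.1, 7.92 and 8.11 FPKM in TMAO libraries and 6.84, 7.76 and 8.33 FPKM in Control libraries. The groups overlapped. Other gene models on the same strand covered 35.4% of the exon bases of Rpl13a, and it shared 57.4% of its words with the model Gm45713. Rpl35 had 66.2% of its exon bases under other genes on the opposite strand and shared 59.0% of its words with Wdr38. Words were matched on both strands, so these values can count the same bases. It held 35.5% of the reads with its copies. Rpl30 averaged 34.2 ± 2.81 FPKM in TMAO cells and 33.3 ± 0.986 FPKM in Control cells, and held 62.7%. The part of the copies and overlapping models in these low levels was not tested.

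Counting the copies with the genes did not bring a call. Of 85 genes tested in that way, none passed the adjusted threshold in limma and 9 had an unadjusted p under 0.05 (10.6%, against 13.4% of the 10833 genes tested), with a median log2 fold change of 0.030. The 9 were the 6 already named with Rpl4, Rpl22l1 and Rpl24. Rpl24 itself held only 0.945% of the reads counted with its 3 copies, so its value there is almost wholly that of the copies. The 174 listed rows named as ribosomal protein pseudogenes summed to 11637, 12725 and 12375 FPKM in TMAO libraries, against 12582, 11505 and 11994 FPKM in Control libraries, with the groups overlapping.

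Paralogs were set against their canonical partners within each library, which removes any factor common to both. Rpl22l1, the paralog of Rpl22, had 13.4, 15.1 and 16.4 FPKM in TMAO libraries and 12.9, 13.2 and 14.2 FPKM in Control libraries, with a log2 fold change of 0.14 ± 0.07 and an adjusted p of 0.448 in limma. It stood at 8.06% ± 0.701 of Rpl22 in TMAO cells and 7.27% ± 0.366 in Control cells (SD, n = 3 each), with all TMAO ratios above all Control ratios. The difference of 0.15 on the log2 scale had an exact permutation p of 0.1, two-sided, the smallest that 3 against 3 allows, and an adjusted p of 0.25 over the 5 pairs tested. Rps4l, annotated as a pseudogene copy of Rps4x, stood at 3.90% ± 0.184 of Rps4x in TMAO cells and 3.57% ± 0.120 in Control cells, with the same exact permutation p of 0.1 and an adjusted p of 0.25. Rpl7l1, a paralog of Rpl7, stood at 5.54% ± 0.323 of it in TMAO cells and 5.28% ± 0.294 in Control cells, with an exact permutation p of 0.6. With 3 samples a group no pair can pass the threshold, so these p-values show neither a difference nor its absence.

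Rps27l, which in human cells is induced by p53, had a higher deposited FPKM than its partner. The size of that gap depends on the length used, and its direction on whether copies are counted. Per principal transcript length the mean levels over the 6 libraries were 657 for Rps27l and 649 for Rps27, and with copies added 657 and 1061. Rps27l had 374, 427 and 398 FPKM in TMAO libraries and 415, 383 and 414 FPKM in Control libraries, and in FPKM it stood at 185% ± 3.93 of Rps27 in TMAO cells and 190% ± 14.6 in Control cells, with an exact permutation p of 0.8. Rps27rt, a retrogene outside the naming rule, stood at 172% ± 12.1 of Rps27 in TMAO cells and 185% ± 47.4 in Control cells, with an exact permutation p of 0.9. Rps27 shares 98.6% of its 50-base words with Rps27rt, so the split between them is uncertain, whereas Rps27l is distinct from Rps27 at 61 of 255 coding bases, an identity of 76.1%. The first 60 coding bases of both, from GENCODE M21 (mm10) with the 18 differing bases in capitals, show the distance.
Rps27 (gene at chr3:90212522-90213651, - strand): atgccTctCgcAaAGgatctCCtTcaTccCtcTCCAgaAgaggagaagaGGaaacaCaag
Rps27l (gene at chr9:66946086-66949516, + strand): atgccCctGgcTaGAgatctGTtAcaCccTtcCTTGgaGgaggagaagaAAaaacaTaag
The remaining paralogs were at or near 0. Rpl3l, a gene of heart and skeletal muscle, was listed with a single read in 1 TMAO library and 0 in the others, Rpl39l, known from the testis, with 3, 0 and 7 reads in TMAO libraries and 3, 0 and 3 in Control libraries, and Rpl36al averaged 0.587 FPKM in TMAO cells and 0.456 FPKM in Control cells.

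The fold changes varied with base composition. Across the 84 tested genes, the log2 fold change and the GC content of the principal transcript had a Pearson r of 0.44 and a Spearman rho of 0.50, as a description over genes that share the same 6 libraries. The 84 include Rps10, which passed the filter only through the TMAO group. Over 11058 tested genes the values were 0.051 and 0.092, but with the GC of each gene's longest transcript. Of the 40 ribosomal protein genes with at least 52% GC, 32 were above 0 with a median of 0.045, and of the 44 with less, 21 were above 0 with a median of -0.002. The 6 genes with an unadjusted p under 0.05 had 51.9% to 58.0% GC, and the 6 with the lowest fold changes (Rps3a2, Rpl7, Rps4x, Rps25, Rps6 and Rps3a1) had 45.2% to 50%. With the GC of the longest transcript for the 84 genes too, r was 0.29, which is the value to set beside 0.051. With trends over GC and length removed from every library, 35 of the 84 genes were above 0 and the median was -0.010. Transcript length and mean FPKM were more loosely related to the fold change, with a Spearman rho of 0.031 and 0.044.

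**Figure D5:**
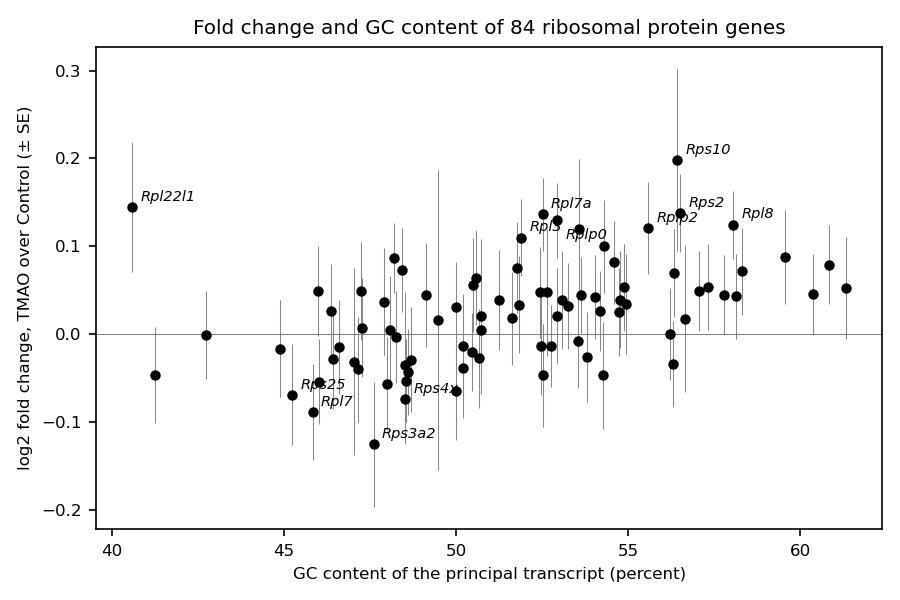
Log2 fold change, TMAO over Control, with its SE (lines), against the GC content of the principal transcript in percent, for the 84 tested ribosomal protein genes (points). Named points include the 6 with the smallest p, which lie at 51.9% to 58.0% GC; Pearson r over the 84 genes is 0.44.

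Other features of the genes were set beside their fold changes. Small nucleolar RNA genes lay inside 30 of the ribosomal protein genes, 58 in all, with 5 in Rpl4 and 3 in Rpl7a. Among these hosts 22 of 30 were above 0 with a median of 0.040, and among the 54 tested genes without one 31 were above 0 with a median of 0.020. Tested genes with a start in the RefSeq table were split by a pyrimidine run in the start window. Of the 40 with a run 28 were above 0, with a median of 0.028, and of the 20 without 10 were, with a median of 0.010. These medians lie within the spread between libraries.

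Genes of the same pathway were taken from fixed lists, and none of their members passed the adjusted threshold in limma. Among the ribosomal protein genes outside the naming rule, Rack1, a scaffold on the small subunit, averaged 493 ± 21.3 FPKM in TMAO cells and 459 ± 12.9 FPKM in Control cells, with a log2 fold change of 0.10 ± 0.05. Fau, which encodes a ubiquitin-like protein fused to an S30 ribosomal protein, averaged 976 ± 68.3 FPKM in TMAO cells and 978 ± 41.1 FPKM in Control cells. Of 17 other genes with TOP mRNAs 8 were above 0, with a median of -0.023, but 12 with a median of 0.011 after rescaling to a common sum and 6 under median-ratio size factors, and at an unadjusted p under 0.05 in limma 1 was higher and 1 lower. Npm1, a nucleolar chaperone of ribosome assembly, had 452, 472 and 475 FPKM in TMAO libraries and 526, 503 and 531 FPKM in Control libraries, with every TMAO library below every Control library and a log2 fold change of -0.16 ± 0.04. Eef1g, a subunit of an elongation factor, averaged 558 ± 12.4 FPKM in TMAO cells and 521 ± 9.46 FPKM in Control cells, and Eif3e 87.9 ± 4.74 and 95.6 ± 5.28 FPKM. The adjusted p of Npm1 was 0.168 in limma.

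Of 30 tested initiation factor genes 15 were above 0 and 15 below, with a median of -0.006, where the scalings gave 12 to 19 above 0 and medians of -0.032 to 0.027, and 2 were higher and 2 lower at that unadjusted p. Eif2s2, the beta subunit of the factor that brings initiator tRNA, had 70.5, 74.2 and 76.9 FPKM in TMAO libraries and 84.8, 81.2 and 82.7 FPKM in Control libraries, and the groups did not overlap. Eif3i and Eif3g, subunits of the eIF3 scaffold, averaged 70.1 ± 3.29 and 46.7 ± 0.915 FPKM in TMAO cells, against 63.7 ± 2.28 and 43.3 ± 0.331 FPKM in Control cells. Of 34 ribosome assembly genes 22 were above 0, with a median of 0.021, but 16 under median-ratio size factors and 27 after rescaling to a common sum. At that p 5 were higher and 2 lower. Those with the smallest p were Nop2, a ribosomal RNA methyltransferase, Gar1, a protein of the pseudouridylation particles, and Nob1, the nuclease that completes 18S RNA, with log2 fold changes of 0.23 ± 0.07, 0.28 ± 0.10 and 0.17 ± 0.06. The groups overlapped for Gar1. The 2 lower genes were Rrs1 and Dkc1, with log2 fold changes of -0.16 ± 0.07 and -0.13 ± 0.06.

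Of the 12 genes for RNA polymerase I and its factors 10 were above 0, with a median of 0.056, and 8 to 11 were above 0 under the other scalings. Taf1a alone had an unadjusted p under 0.05. Taf1a, a subunit of its promoter selectivity factor, had 3.06, 3.02 and 3.05 FPKM in TMAO libraries and 1.94, 2.01 and 2.4 FPKM in Control libraries, with no overlap, a log2 fold change of 0.38 ± 0.08 and an adjusted p of 0.104 in limma. Polr1b and Polr1c, subunits of the polymerase, had log2 fold changes of 0.12 ± 0.11 and 0.05 ± 0.05. Of 16 regulators of ribosomal protein synthesis 12 were above 0, with a median of 0.041, but 9 under quantile normalization or median-ratio size factors and 15 after rescaling to a common sum. Eif4ebp1, the mTORC1 target that holds back the cap-binding factor, had 185, 184 and 183 FPKM in TMAO libraries and 165, 161 and 173 FPKM in Control libraries, with every TMAO library above every Control library and an adjusted p of 0.188 in limma. Rictor, the defining subunit of mTORC2, and Mdm2 had log2 fold changes of 0.21 ± 0.08 and 0.13 ± 0.06. At an unadjusted p under 0.05, 2 of the regulators were higher and 0 lower.

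Markers were looked at for the labelled cell type and for others the cultures could hold. Of 7 smooth muscle markers, Acta2 averaged 483 ± 8.68 FPKM in TMAO cells and 487 ± 2.79 FPKM in Control cells and Myl9 94.7 ± 2.04 and 99.1 ± 0.433 FPKM, while Tagln, Cnn1 and Myh11 averaged under 1 FPKM in both groups. Actg2 averaged 15.9 ± 1.01 FPKM in TMAO cells and 17.6 ± 0.225 FPKM in Control cells, and Des 1.53 ± 0.294 and 1.11 ± 0.17 FPKM. The 7 summed to 586 to 606 FPKM in TMAO libraries and 604 to 608 FPKM in Control libraries. The 5 fibroblast markers summed to 54.7 to 57.6 FPKM in TMAO libraries and 57.8 to 59.3 FPKM in Control libraries, the 5 macrophage markers to 9.95 to 11.1 FPKM and 8.97 to 12.9 FPKM, and the 5 endothelial markers to 0.328 to 0.584 FPKM and 0.339 to 0.455 FPKM. Of the fibroblast list, Pdgfra averaged 23.8 ± 1.33 FPKM in TMAO cells and 26.5 ± 1.26 FPKM in Control cells, Lum 3.72 ± 0.369 and 4.4 ± 0.537 FPKM, and Dpt 7.29 ± 0.25 and 6.94 ± 0.39 FPKM. The macrophage markers Cd14 and Cd68 averaged 5.14 ± 0.487 and 4.28 ± 0.59 FPKM in TMAO cells, against 5.4 ± 1.08 and 4.17 ± 0.691 FPKM in Control cells, and Ptprc was near 0 in both. The part of the fibroblast and smooth muscle levels in the values of the ribosomal protein genes was not tested.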

How the data were processed

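RNA from 6 samples of cultured cells, 3 TMAO and 3 Control, was extracted with Trizol and made into stranded mRNA libraries, per the labels' protocols. The authors deposited FPKM per gene. The submitters' processing notes name the tools Trimmomatic, HISAT2, Cufflinks and HTSeq and the build mm10, without versions or strand setting. In Control library 1 the header spells the unit PKM. FPKM values times exon length (GENCODE M21) and a library total gave whole reads within 0.01 for 25499 of 25885 annotated genes (98.5%), with totals of 16524834, 15951831 and 14991252 reads for TMAO libraries 1 to 3 and 15015258, 15064527 and 16806728 for Control libraries 1 to 3. These reads are used for read counts and shares. No reads could be recovered for 54 genes not in M21.

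Genes that reached 1 FPKM in 3 or more libraries were fitted in limma 3.58.1 (R 4.3.3, trended robust variances) on log2(FPKM + 1), which understates the change of low genes, and p-values were adjusted by Benjamini-Hochberg over all tested genes (threshold 0.05). The fit was tested on simulated data. Paralog ratios had exact two-sided permutation tests over the 6 libraries. Pearson and Spearman correlations across genes came from scipy 1.17.1. A copy is a listed gene outside the set that shares at least 10% of a gene's 50-base words and does not overlap it. Each copy was counted with 1 gene only, that of whose words it held the largest share. GC content and word sharing come from M21 transcripts, start windows from RefSeq. Members and lists were chosen with earlier results of these data known. Named genes were the 10 with the smallest p, the 8 highest, the 8 lowest that were tested, the paralogs, a panel of 12 with known roles, and 3 per pathway list, and others are marked where they are named (Rpl21, Rpl24 and Rpl35 for their level). Scalings, filters, pseudocount, test, block and each library in turn were varied.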

Additional observations from a re-analysis of the deposited data

How the results depend on the processing

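No ribosomal protein gene passed the adjusted threshold of limma in any of the 18 alternatives, nor did any gene of the pathway lists. The labels do not say that the replicate numbers pair the samples. Same-numbered libraries had correlations of -0.086, -0.10 and 0.056 in their deviations from the group means. Differently numbered libraries had correlations of -0.061 to 0.14. These values cannot show whether samples of a number shared an animal or a day. With the replicate number as a block, 0 ribosomal protein genes passed, 3 had an unadjusted p under 0.05 (3.57%, against 10.7% of all tested genes) and their smallest adjusted p was 0.418. The count of all genes past the threshold, 20, became 0 with no filter, 50 with a mean of at least 5 FPKM, 90 with voom on recovered reads, 31 with copies added and 43 with GC and length trends removed, and 11 to 56 with 1 library left out; the cause was not tested. Adding copies and removing the GC and length trends were chosen after seeing the data. The difference in share of 0.583 percentage points became 0.189 in recovered reads and 0.375 to 0.796 with 1 library left out. Log2 fold changes near 0 turned sign: Rplp1 (0.053) to -0.018 with quantile normalization and -0.027 with GC and length trends removed, Rpl7l1 (-0.020) to 0.013 and Rps27l (-0.017) to 0.017 with rescaling to TPM. With 1 library left out, Rpl7l1 ran from -0.038 to 0.0035 and Rps27l from -0.066 to 0.030, and the log2 ratio of Rps27l to Rps27 ran from -0.072 to 0.026 and that of Rps27rt to Rps27 from -0.22 to 0.12, positive only without Control library 2. Of the remaining values, 369 of single genes kept their direction and side of the threshold. Another 106, of summaries and ratios, were scored as unchanged. Ratios were scored by direction and threshold, counts by their relative size, and medians and shares by the spread between libraries. The scoring of medians did not look at sign. The median of the ribosomal protein genes fell below 0 without TMAO library 2, and to -0.010 with GC and length trends removed. Rps10 could not be fitted under the filter at 5 FPKM.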
